A study of Mus musculus with 8 samples.

Results

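Tribbles and the PRAG1/PEAK1 pair are pseudokinases, proteins that keep the fold of a protein kinase but lack some of the residues needed for catalysis and act mainly as scaffolds. Their genes were read here in CD4+ T cells of the mouse spleen, the helper lineage. The members are the rows with the gene names Trib1, Trib2, Trib3, Prag1 and Peak1, 5 of 54532 genes listed. All 5 passed the filter on low counts, as did 13981 genes in all. They were chosen by gene name with the counts of both groups in view, and Trib2 and Prag1 by their small p-values between the groups. For that reason the differences between groups are given for all 5 as a description, with an error, and no p-value is offered as support for them.

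Cells of the WT genotype were given dimethyl succinate for 3 days in 4 libraries, and vehicle in the other 4. Dimethyl succinate enters cells and supplies succinate, a metabolite of the tricarboxylic acid cycle. Messenger RNA was sequenced in bulk, so fewer cells of a type and less RNA per cell cannot be told apart. Mouse strain, sex and age, and whether libraries came from separate animals or cultures, are not given in the sources used here, so the spread between libraries may be technical.

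Tribbles proteins bring other proteins to the ubiquitin ligase COP1, and the C/EBP transcription factors are the best known of the targets degraded in this way. They also bind the kinases AKT and MEK1. TRIB3 is induced by the stress factors ATF4 and CHOP, TRIB2 is known from leukaemia and as a repressor of FOXO factors, and TRIB1 has been described as a partner of FOXP3 in regulatory T cells. PRAG1, also called Pragmin or NACK, was described in rat as an effector of the small GTPase RND2. It binds CSK, the kinase that restrains SRC family kinases, and has been reported as a cofactor of Notch transcription complexes. PEAK1 is a scaffold of the actin cytoskeleton that binds SHC1 and GRB2, and it can form dimers with PRAG1.

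Total counts ran from 14663698 to 16688854 in dimethyl succinate libraries and from 13407295 to 15738869 in vehicle libraries. Vehicle replicate 4 stood apart. Over tested genes it correlated with the other 7 libraries at a mean of 0.981, where each of those reached 0.989 to 0.991, and mitochondrially encoded genes took 0.252% of its counts, where they took 1.16% to 1.48% elsewhere. A log2 fold change is therefore given without it as well wherever leaving it out turned the sign or moved the value by over 1.5 times. The summed level of 6 markers of CD4+ T cells was 1699 to 1750 CPM (counts scaled to a common library size) with dimethyl succinate and 1375 to 1773 CPM with vehicle, the lowest being vehicle replicate 4. Of 9 other cell types, markers of stroma and endothelium summed to 33.7 to 38.7 CPM with dimethyl succinate and 28.0 to 39.2 CPM with vehicle, nearly all of it Pecam1. Markers of erythroid cells and platelets summed to 22.7 to 29.4 CPM and 25.6 to 50.7 CPM, mostly Itga2b, and vehicle replicate 4 was the highest. The other 7 lists stayed at or below 13.9 CPM in every library. Monocyte and macrophage markers, of interest because TRIB1 is well studied in macrophages, summed to 6.39 to 10.6 CPM with dimethyl succinate and 4.17 to 7.55 CPM with vehicle. Siglech, S100a9, Cdh5 and Col3a1 had no count in any library, but other markers of the same lists did. Beside Pecam1, Zbtb46 of dendritic cells had 7.22 to 8.50 CPM with dimethyl succinate and 5.43 to 8.42 CPM with vehicle. Cpa3, of granulocytes and mast cells, had 5.57 to 6.39 CPM and 4.17 to 6.63 CPM. The zeros thus do not show that a cell type was absent. Whether other cell types were present, and what part they have in the members' values, was not tested.

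Per gene length, the 5 genes fell into 3 tiers. FPKM, fragments per kilobase of gene scaled to library size, was deposited by the authors and is used for every comparison of levels between genes. Trib2 was the highest, with 38.0 ± 1.07 FPKM under dimethyl succinate and 46.4 ± 2.22 FPKM under vehicle (SD, n = 4 each), above 91.0% of tested genes by its mean. Trib3 followed with 31.9 ± 3.75 FPKM and 36.6 ± 7.53 FPKM. The ranges of Trib2 and Trib3 over the 8 libraries overlapped, although Trib2 lay above Trib3 within each of the 8, by 1.03-fold to 1.39-fold, the smallest ratio being that of vehicle replicate 4.

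The middle tier lay near the median tested gene, which stood at 6.06 FPKM. Trib1 had 7.78 ± 0.551 FPKM with dimethyl succinate and 7.14 ± 0.504 FPKM with vehicle, and Peak1 had 6.84 ± 0.315 FPKM and 6.05 ± 0.915 FPKM. Their ranges overlapped and Trib1 was above Peak1 in 7 of 8 libraries, so this pair is not ordered beyond its spread. Prag1 was the lowest, with 2.23 ± 0.112 FPKM with dimethyl succinate and 1.64 ± 0.0565 FPKM with vehicle, and 28.6% of tested genes lay below it. Trib3 was at least 3.28 times Trib1 in every library and Peak1 at least 2.90 times Prag1, with no overlap of ranges at either step. Counts divided by the listed gene length gave the same order of the 5.

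**Figure D1:**
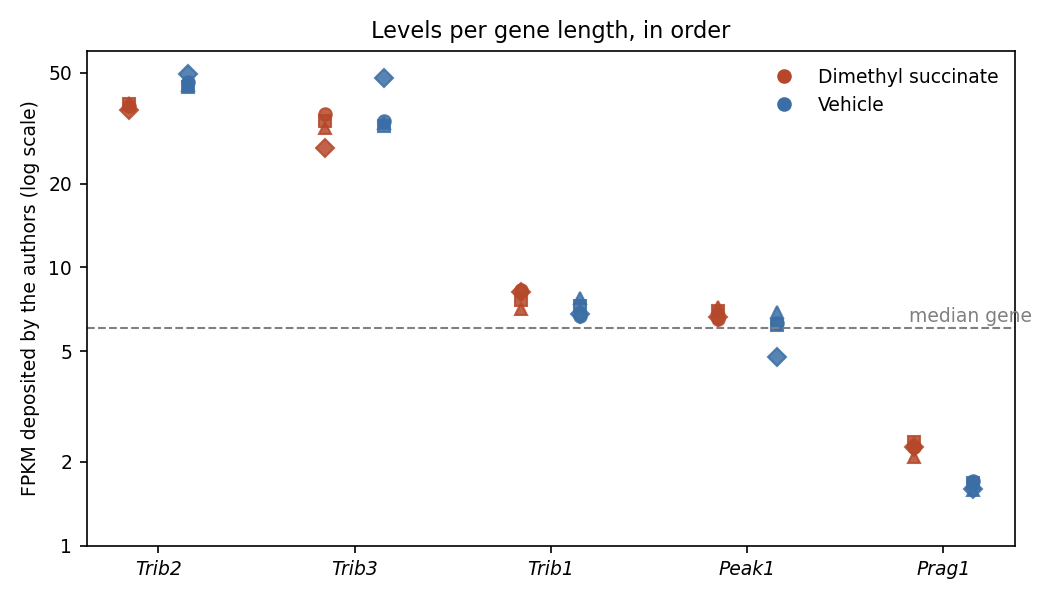
FPKM deposited by the authors (vertical axis, log scale) for the 5 genes in order of mean level. Each point is a library, its shape the replicate number as in the plot of CPM by library, with dimethyl succinate left of vehicle; the dashed line is the median tested gene at 6.06 FPKM. Trib2 and Trib3 stand above Trib1 and Peak1, which stand above Prag1.

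The gene models differ widely in size, which is why levels are set side by side only per length. Coordinates are those of the mouse build GRCm38, as the listed starts and ends equal those of GENCODE M21 for all 5 genes. Trib1 (ENSMUSG00000032501) lies on the plus strand of chromosome 15 from 59648350 to 59657099 and has 6248 exon bases. Trib2 (ENSMUSG00000020601) is read from the minus strand of chromosome 12, between 15791727 and 15816922, with 4335 exon bases. Trib3 (ENSMUSG00000032715) is the shortest, on the minus strand of chromosome 2, between 152337422 and 152344032, with 2125 exon bases.

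Prag1 (ENSMUSG00000050271) lies on the plus strand of chromosome 8 from 36094828 to 36147787 and has 9606 exon bases. Peak1 (ENSMUSG00000074305) spans 216942 bases on the minus strand of chromosome 9, between 56201126 and 56418067, with 12351 exon bases. Trib1, Trib2, Trib3 and Prag1 share no exon base with another annotated gene. Peak1 shares 57 exon bases, 0.462% of its own, with the antisense gene Peak1os, which had 5 counts in the 8 libraries together. Whether counting used strand was not given in the sources used here, but 5 counts compare with 9721 for Peak1.

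Sequence before the start is shown for Trib2 and Trib3, the Tribbles genes of the highest level per length. For Trib2 these are the 80 bases between its annotated start and that of Gm5432, a noncoding RNA on the opposite strand annotated as arising from a bidirectional promoter (chr12:15816923-15817002, GRCm38.p6, minus strand). For Trib3 they are the 250 bases before the start that RefSeq lists (chr2:152344061-152344310, GRCm38.p6, minus strand), shown because Trib3 is the member known as a target of ATF4 and CHOP. Both are given 5′ to 3′ on the strand of the Tribbles gene, from RefSeq, and capitals mark the GC box GGGCGG and the TATA box TATAAA on either strand.
Trib2: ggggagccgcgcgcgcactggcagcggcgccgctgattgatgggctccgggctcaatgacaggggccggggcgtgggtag
Trib3: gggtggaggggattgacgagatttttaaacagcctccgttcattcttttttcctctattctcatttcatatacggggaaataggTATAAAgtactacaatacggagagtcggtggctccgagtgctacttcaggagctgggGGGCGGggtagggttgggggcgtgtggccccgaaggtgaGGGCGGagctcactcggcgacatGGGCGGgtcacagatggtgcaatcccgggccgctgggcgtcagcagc

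The Trib2 stretch is 75% G or C and holds neither motif, but it is shorter than the Trib3 window, and the 250 bases before the start that RefSeq lists for Trib2 hold 2 GC boxes and 0 TATA boxes. Gm5432 had 12 counts over the 8 libraries where Trib2 had 22174. The Trib3 window is 57.2% G or C, against a median of 52.4% over 32851 such windows of 27025 genes. It holds 3 GC boxes, a motif found in 32.7% of those windows, and 1 TATA box, found in 12.4%. The exact letters TGATGCAA, for the composite element of C/EBP and ATF factors, are not in the window on either strand, and 0.791% of all windows hold them. Near matches were not searched, so the window may hold a variant of the element. These matches are a description of the letters and say nothing of what binds there.

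Trib2, the most highly expressed Tribbles gene here per length, was lower in the dimethyl succinate libraries. It had 166, 168, 171 and 160 CPM in dimethyl succinate replicates 1 to 4, against 203, 194, 197 and 215 CPM in vehicle replicates 1 to 4. Every dimethyl succinate library lay below every vehicle library, and vehicle replicate 4 was the highest of all. The means were 166 ± 4.48 CPM and 202 ± 9.12 CPM (SD, n = 4 each), a ratio of 0.823 and a log2 fold change of -0.28 ± 0.057 (SE). Without vehicle replicate 4 the log2 fold change was -0.25 ± 0.047, and the vehicle mean was 198 ± 4.42 CPM (SD, n = 3). Each library held between 2423 and 3084 counts of Trib2, for which counting error alone is 1.80% to 2.03%.

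Trib3, the stress-induced Tribbles gene, differed between the groups mainly through 1 library. It had 76.0, 72.0, 67.5 and 57.4 CPM in dimethyl succinate replicates 1 to 4, against 71.5, 68.9, 70.4 and 102 CPM in vehicle replicates 1 to 4. Vehicle replicate 4 was far above the other 7 libraries, and the groups overlapped. The log2 fold change was -0.20 ± 0.128 (SE) over 8 libraries and -0.042 ± 0.073 without vehicle replicate 4. The other 3 vehicle libraries averaged 70.3 ± 1.28 CPM (SD, n = 3), close to the 68.2 ± 7.99 CPM of the dimethyl succinate libraries (SD, n = 4).

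Trib1, which is also a partner of COP1 and C/EBP factors, had 52.1, 47.9, 44.5 and 51.4 CPM in dimethyl succinate replicates 1 to 4. It had 42.1, 45.8, 48.8 and 42.3 CPM in vehicle replicates 1 to 4. The groups overlapped, since dimethyl succinate replicate 3 lay below vehicle replicates 2 and 3. The means were 49.0 ± 3.51 CPM and 44.8 ± 3.20 CPM (SD, n = 4 each), a log2 difference of 0.13 ± 0.080 (SE) that became 0.10 ± 0.073 once vehicle replicate 4 was left out.

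Taken per length, the 3 Tribbles genes summed to 77.7 ± 4.38 FPKM with dimethyl succinate, in a range of 71.6 to 81.6, and to 90.2 ± 9.40 FPKM with vehicle, in a range of 84.0 to 104 (SD, n = 4 each). The highest sum was that of vehicle replicate 4, and the other 3 vehicle libraries averaged 85.5 ± 1.39 FPKM (SD, n = 3), in a range of 84.0 to 86.6. Trib2 made up 49.0% ± 2.12 of that sum with dimethyl succinate and 51.7% ± 2.80 with vehicle, and Trib3 40.9% ± 2.60 and 40.3% ± 3.77 (SD, n = 4 each). The share of Trib1 was 9.10% to 11.4% in dimethyl succinate libraries and 6.50% to 9.05% in vehicle libraries, ranges that narrowly missed each other. This share and the sum itself depend on Trib2, a large part of the sum, which was chosen with the contrast known. Nothing is therefore read from the gap between the summed levels of the groups. The groups overlapped in the CPM of Trib1 itself, so nothing is read from the gap in its share. Among the vehicle libraries, replicate 4 had the lowest share of Trib1 and of Trib2 and the highest share of Trib3, at 46.0%. In the other 3 vehicle libraries Trib2 averaged 53.1% and Trib3 38.5% of the sum.

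Prag1, the adaptor that binds CSK, was higher in the dimethyl succinate libraries and had the largest log2 difference of the 5 genes. It had 21.9, 22.7, 20.1 and 21.9 CPM in dimethyl succinate replicates 1 to 4, against 16.4, 16.2, 15.3 and 15.3 CPM in vehicle replicates 1 to 4. Every dimethyl succinate library lay above every vehicle library, and vehicle replicate 4 lay with the other vehicle libraries. The means were 21.6 ± 1.07 CPM and 15.8 ± 0.582 CPM (SD, n = 4 each), a ratio of 1.37. On the log2 scale the difference was 0.45 ± 0.086 (SE), and 0.44 ± 0.091 when vehicle replicate 4 was left out. Prag1 also had the fewest reads, 320 to 380 counts per dimethyl succinate library and 205 to 254 per vehicle library, for which counting error alone is 5.13% to 6.98%.

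Peak1, the cytoskeletal relative of Prag1, had 81.5, 86.7, 89.8 and 82.6 CPM in dimethyl succinate replicates 1 to 4. It had 78.7, 76.9, 85.8 and 58.8 CPM in vehicle replicates 1 to 4. The groups overlapped through vehicle replicate 3, and vehicle replicate 4 was the lowest of all. The log2 fold change was 0.18 ± 0.098 (SE) over 8 libraries and 0.084 ± 0.059 without vehicle replicate 4. Of the 2 genes' summed FPKM, Prag1 made up 24.6% ± 1.53 with dimethyl succinate and 21.6% ± 2.64 with vehicle (SD, n = 4 each), and the ranges overlapped because vehicle replicate 4 stood at 25.1%. The other 3 vehicle libraries averaged 20.4% ± 1.47 (SD, n = 3). This share depends on Prag1, which was chosen with the contrast known, so nothing is read from its difference between groups.

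**Figure D2:**
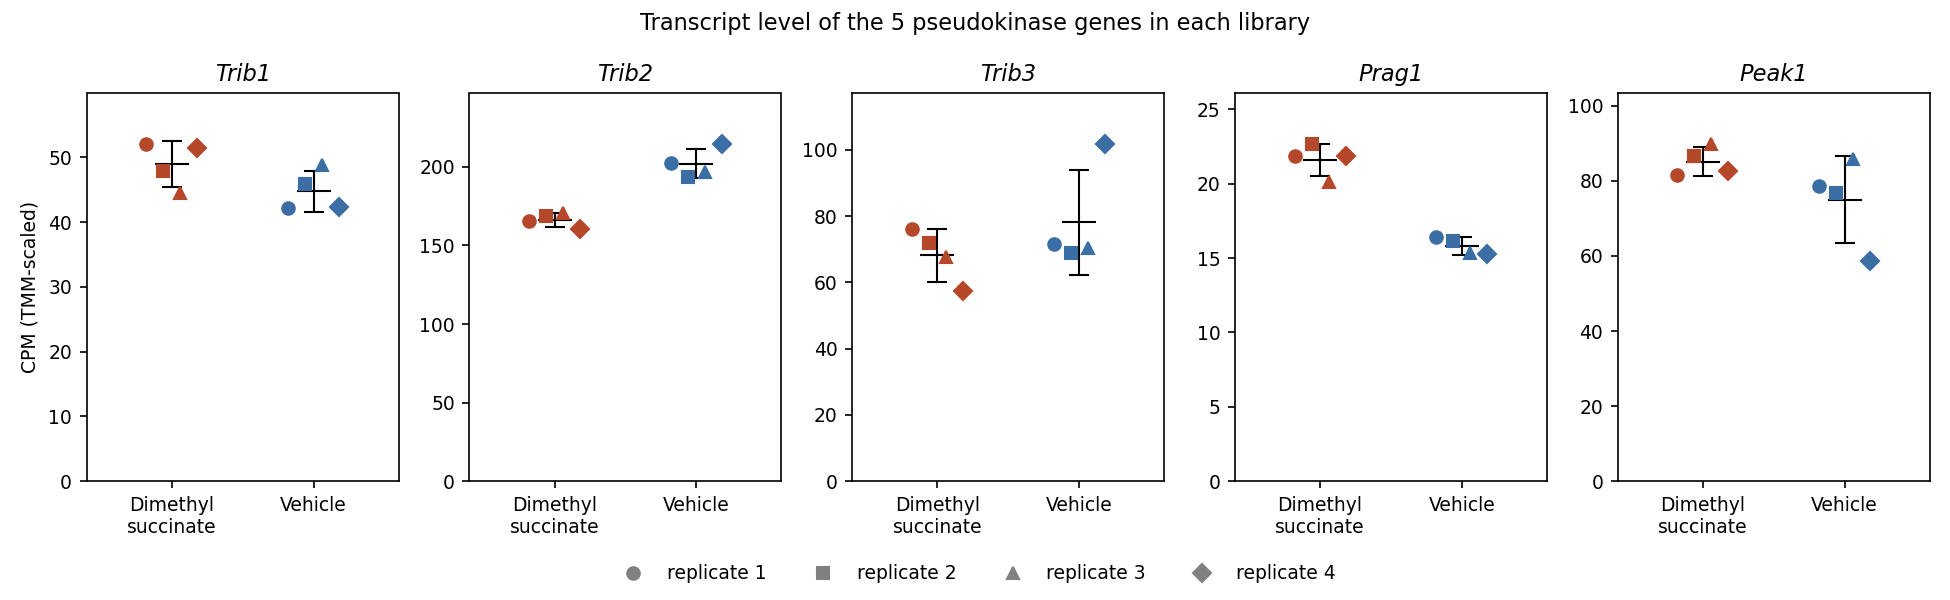
CPM scaled by TMM factors (vertical axis, from 0) of the 5 genes in the 4 dimethyl succinate and 4 vehicle libraries. Points are libraries, shapes are replicate numbers, and the black bar is the mean ± SD. The groups do not overlap for Trib2 and Prag1, and vehicle replicate 4 (diamond) is far from the other vehicle libraries for Trib3, at 102 CPM, and Peak1, at 58.8 CPM.

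Groups did not overlap for 1 of 5 members on the lower side, Trib2, where 2.32% of all tested genes lay so, and for 1 of 5 on the higher side, Prag1, where 2.5% did. These members were chosen with the contrast known, so nothing is read from the counts. With edgeR's quasi-likelihood test at 0.05, adjusted, the calls were 0 of 13981 genes (0%), hence none of the 5. Before adjustment 805 genes (5.76%) had a p below 0.05, 2.93% of genes higher and 2.83% lower. DESeq2 and limma-voom called 0 genes each (0%). Without vehicle replicate 4 the same edgeR test called 28 of 14232 genes (0.197%). Trib2 and Prag1 were among the 28, which is given as a description, since both were chosen by this contrast. The authors' deposited table lists an adjusted p below 0.05 for 4 of 24973 genes (0.016%), and Trib2 (0.0230) and Prag1 (0.0395) are 2 of those 4; these p-values come from the contrast by which both were chosen and are given as a description. DESeq2 with its filter on low means tuned at 0.1, tried after that table was seen, called 4 genes, 0.0458% of 8738. Trib2 and Prag1 were among them. For the 5 members DESeq2 gave log2 fold changes and p-values nearly identical to the deposited ones. This fit therefore repeats the deposited comparison and is not a second result. The log2 fold changes in the authors' deposited table were -0.29 for Trib2, 0.45 for Prag1, -0.20 for Trib3, 0.18 for Peak1 and 0.12 for Trib1.

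**Figure D3:**
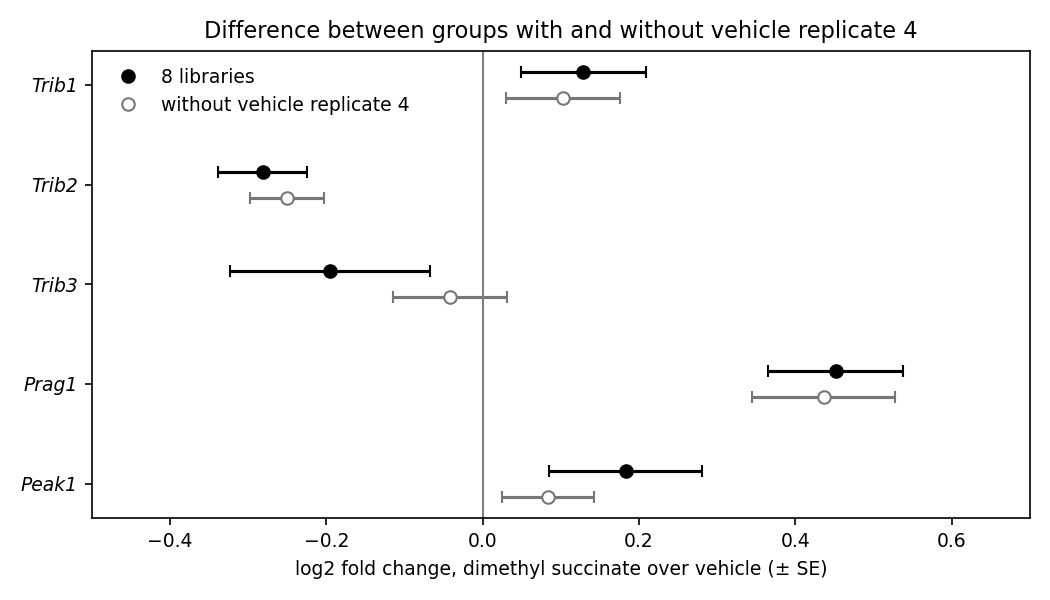
Log2 fold change of dimethyl succinate over vehicle (horizontal axis) with its SE for the 5 genes, over 8 libraries (filled) and without vehicle replicate 4 (open). Trib2 and Prag1 keep nearly the same value, while Trib3 moves to -0.042, against -0.20 with that library, and Peak1 to 0.084, against 0.18.

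The 5 genes also differed in how closely replicates agreed. The biological coefficient of variation, the spread beyond counting error, was 6.71% for Trib2, 7.95% for Prag1, 8.49% for Trib1, 10.2% for Peak1 and 12.9% for Trib3, where the median over tested genes was 10.8%. Trib2 and Prag1 were chosen by small p-values, which favour genes of small spread, so nothing is read from their place below that median. Among dimethyl succinate libraries the SD of log2 CPM was 0.039 for Trib2 and 0.17 for Trib3, against a median of 0.12 over tested genes. Vehicle replicate 4 differed from the mean of the other vehicle libraries by 0.53 for Trib3 and -0.45 for Peak1 on the log2 scale, and by 0.12 for Trib2, -0.11 for Trib1 and -0.061 for Prag1. The median size of that difference over tested genes was 0.26.

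Likeness to other genes was measured as the root mean square difference between log2 CPM values, each centred on the gene's mean, over the 8 libraries and 8914 other genes that averaged 10 CPM or more. The nearest genes to Trib2 were Abhd10, Rbm39 and Ccnl1, which differed from it by 0.045, 0.045 and 0.046, where the median gene differed by 0.18. The nearest to Prag1 were Kcna3, Pcsk4 and D030028A08Rik, at 0.091, 0.096 and 0.10, with a median gene at 0.26. The genes nearest to Trib2 were all lower with dimethyl succinate and those nearest to Prag1 all higher, like the member itself. Both members were chosen by this contrast, so nothing is read from these likenesses. Those nearest to Trib3 were Ftl1, Tomm40l and Dedd2, at 0.051 to 0.068, and to Peak1 Ythdf2, Tmem245 and Ube2n, at 0.034 to 0.040. Trib1 was nearest to Stim2, Hras and Capzb, at 0.047 to 0.049. All share the same libraries, and without vehicle replicate 4 only 1 of these 15 genes, Ccnl1 for Trib2, was still among the nearest 3 of its member.

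Genes whose starts lie within 100000 bases of a member's start were read for comparison for the Tribbles genes and Prag1, and 4 near Trib3 and 1 near Prag1 passed the filter on low counts. Rbck1, 11379 bases from Trib3 and a part of a ubiquitin ligase of NF-kB signalling, had 290 ± 18.9 CPM with dimethyl succinate and 288 ± 11.0 CPM with vehicle (SD, n = 4 each), and its log2 fold change was 0.010 ± 0.063 (SE), and 0.029 with vehicle replicate 4 left out. The neighbour of Prag1 was the scarce pseudogene Rps12-ps24, with 87 counts in the 8 libraries, and Trib1 and Trib2 had none. In edgeR the adjusted p ran from 0.802 to 0.990 over these 5 neighbours.

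Known partners of Tribbles proteins held no called gene in the 8 libraries, as did the whole table. Of 24 tested, edgeR's quasi-likelihood test called 0 in either direction, DESeq2 and limma-voom called 0, and 1 was higher at an unadjusted p below 0.05, where 5.76% of all tested genes had such a p in either direction. That gene was Foxo3, named after its value was seen. The median log2 fold change was 0.0073, against -0.0011 over all tested genes, and 14 of 24 lay above 0, against 49.6% of all. Cop1, the ubiquitin ligase itself, had 46.0 ± 4.28 CPM with dimethyl succinate and 46.8 ± 3.95 CPM with vehicle (SD, n = 4 each). Atf4 had 472 ± 5.56 CPM and 473 ± 7.54 CPM, and Ddit3, which encodes CHOP, 71.8 ± 12.0 CPM and 73.2 ± 2.99 CPM. The log2 difference of Ddit3 was -0.029, and -0.058 when vehicle replicate 4 was left out. Cebpb, a C/EBP factor, had 37.1 ± 2.54 CPM and 43.2 ± 12.6 CPM, which is -0.22 ± 0.162 (SE) on the log2 scale, and 0.0040 when vehicle replicate 4 is left out.

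The kinases that Tribbles proteins bind lay close to 0 as well. Akt1 and Akt2 had log2 fold changes of 0.091 ± 0.061 and 0.042 ± 0.064 (SE), and without vehicle replicate 4 that of Akt2 was 0.028. Map2k1, which encodes MEK1, was at -0.064 ± 0.087, or 0.040 without vehicle replicate 4, the library in which it stood at 131 CPM. Foxo1, the FOXO factor of resting T cells, was at -0.036 ± 0.055, and Ddb1, an adaptor of the COP1 ligase, at 0.0072 ± 0.061, or 0.037 without vehicle replicate 4.

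Partners of PRAG1 and PEAK1 were likewise not called. Of 24 listed, Peak3 was not matched by name, and of 23 tested edgeR, DESeq2 and limma-voom called 0. In edgeR 2 had an unadjusted p below 0.05, both of them higher, where 2.93% of all tested genes were higher at that p. The 2 were Notch1 and Crk, an adaptor named after its value was seen. The median log2 fold change was 0.043, or 0.021 without vehicle replicate 4, and 14 of 23 lay above 0, against 49.6% of all tested genes. Notch1, the receptor whose transcription complex PRAG1 has been linked with, had 536 ± 41.5 CPM with dimethyl succinate and 463 ± 39.8 CPM with vehicle (SD, n = 4 each). Its log2 fold change was 0.21 ± 0.079 (SE), and 0.16 when vehicle replicate 4 was left out; edgeR's adjusted p was 0.802. Csk, the kinase that PRAG1 binds, had 288 ± 10.3 CPM and 285 ± 2.96 CPM, and Fyn, a SRC family kinase of T cells, 283 ± 1.85 CPM and 284 ± 12.4 CPM. Without vehicle replicate 4 the log2 fold change of Csk was 0.0097, against 0.016 with it, and that of Fyn 0.021, against -0.0038. Lck and Cbl, the other members of highest level, had log2 fold changes of 0.043 ± 0.072 and 0.074 ± 0.067 (SE), or -0.016 and 0.027 without vehicle replicate 4, which turned the sign of Lck. Rnd2 was scarce, at 1.12 ± 0.418 CPM and 1.32 ± 0.417 CPM, and its log2 difference of -0.24 became -0.075 without that library.

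Other pseudokinases served as relatives outside the 2 families. Of 28 listed 24 were tested, and edgeR, DESeq2 and limma-voom called 0. In edgeR 2 had an unadjusted p below 0.05, both of them higher, where 2.93% of all tested genes were higher at that p. The 2 were Trrap, a scaffold of histone acetyltransferase complexes, and Irak2, named after its value was seen. The median log2 fold change was 0.016, or -0.0024 without vehicle replicate 4. Trrap had 332 ± 7.56 CPM with dimethyl succinate and 299 ± 14.6 CPM with vehicle (SD, n = 4 each), at 0.15 ± 0.058 (SE). Stk40, the relative nearest to Tribbles, was at 0.098 ± 0.059, Ksr1, a scaffold of the ERK cascade, at 0.11 ± 0.058 and Pan3, of the deadenylase complex, at -0.089 ± 0.061.

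Pathways known to act on Tribbles genes, or to be acted on by their proteins, held no called gene in the 8 libraries. Of 18 ATF4 and CHOP targets 4 lay above 0, where 49.6% of all tested genes did. The median of these targets was -0.069, or -0.037 when vehicle replicate 4 was left out. In edgeR 1 was higher and 1 was lower at an unadjusted p below 0.05, where 2.93% of all tested genes were higher and 2.83% lower. Psat1, an enzyme of serine synthesis, was the lower one, at 322 ± 5.32 CPM with dimethyl succinate and 351 ± 9.06 CPM with vehicle (SD, n = 4 each). The higher one was Sesn2, named after its value was seen. Slc7a5 and Slc3a2, the 2 chains of an amino acid transporter, were at 0.020 ± 0.074 and -0.031 ± 0.063 (SE), and Shmt2 at -0.042 ± 0.059. Without vehicle replicate 4 the values were -0.017 for Slc7a5, 0.00074 for Slc3a2 and -0.027 for Shmt2. DESeq2 and limma-voom called 0 of the 18 and had 2 each at an unadjusted p below 0.05. Of all 13981 tested genes, DESeq2 had 706 at that p and limma-voom 834.

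Of 12 FOXO targets in T cells 7 lay above 0, where 49.6% of all tested genes did. The median of these targets was 0.035, or -0.0073 when vehicle replicate 4 was left out. For them edgeR, DESeq2 and limma-voom each had 0 at an unadjusted p below 0.05, where edgeR had 5.76% of all tested genes. Ccr7, a receptor for homing to lymph nodes, had a log2 fold change of -0.044 ± 0.082 (SE). Tcf7, a transcription factor of resting T cells, was at 0.21 ± 0.193, or 0.015 without vehicle replicate 4. Foxp1 was at 0.086 ± 0.093, or -0.012 without it.

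Of 18 ERK feedback genes 9 lay above 0, where 49.6% of all tested genes did. The median of the 18 was -0.011, or 0.032 when vehicle replicate 4 was left out. In edgeR 3 had an unadjusted p below 0.05, all of them higher, where 2.93% of all tested genes were higher at that p. DESeq2 and limma-voom called 0 of the 18 and had 3 each at that p, against 706 and 834 of all 13981 tested genes. The 3 in edgeR were Egr3, Fosl1 and Spry1, named after their values were seen, and Spry1 was the only member that edgeR called without vehicle replicate 4, as higher, at a log2 fold change of 0.40. Egr1, an early response transcription factor, had 177 ± 18.2 CPM with dimethyl succinate and 158 ± 33.5 CPM with vehicle (SD, n = 4 each). On the log2 scale Egr1 differed by 0.17 ± 0.139 (SE), and by 0.033 once vehicle replicate 4 was left out. Dusp4 and Dusp5, phosphatases of the pathway, were at -0.036 ± 0.140 and -0.024 ± 0.068 (SE), or 0.16 and 0.031 without vehicle replicate 4, and Myc was at 0.049 ± 0.094, or -0.049 without it.

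**Figure D4:**
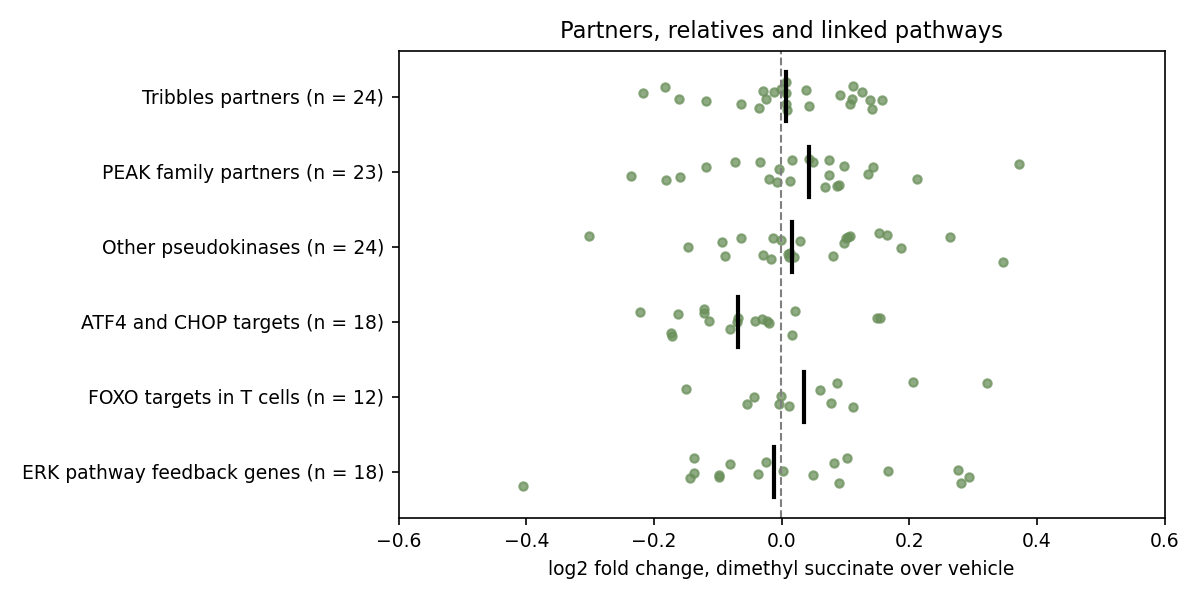
Log2 fold change of dimethyl succinate over vehicle (horizontal axis) of each tested gene in the 6 lists; points are genes, shifted up or down only to keep them apart, black bars are list medians and the dashed line is the median of all tested genes, -0.0011. The medians lie between -0.069, for ATF4 and CHOP targets, and 0.043, for partners of PRAG1 and PEAK1.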

How the data were processed

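The authors deposited 1 table that holds, per the file headers, raw counts for each gene in each library and FPKM values beside them. Reads were aligned with HISAT2 2.0.5, per the submitters' processing notes. The counter, annotation and build are not given in the sources used here. Listed starts and ends equalled those of GENCODE M21 for 98.3% of 54409 matched genes. The table also holds the authors' group means, a normalised signal, and their deposited log2 fold changes, p-values and gene lengths in base pairs.

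Counts were compared with edgeR 4.0.16 in R 4.3.3, by its quasi-likelihood test (robust), filterByExpr, TMM factors and Benjamini-Hochberg adjustment over all tested genes, two-sided at 0.05. SEs were taken from the F statistic. CPM used TMM-scaled totals, and log2 CPM a prior count of 2. Alternatives used DESeq2 1.42.0, limma 3.58.1, other scaling and filters, log2(FPKM + 1) and log2(FPKM + 0.1), a block for the title number, and leaving out each library. Replicates of a group differed beyond counting noise (chi-square per gene of 2.11 or more, where 1 is noise alone).

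The members and lists were chosen with earlier results of these data known. Named from each list were the 4 tested genes with the highest mean CPM and 13 direct partners, 1 of them Peak3, and for each member the 3 genes of nearest pattern. A gene outside this rule is said to be so, and some results within it are not reported here. Counting errors cover counting alone.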

Additional observations from a re-analysis of the deposited data

Results flagged for a closer look

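Over the members and the named genes of the lists, 70 groups of 4 libraries were examined for a library far from the other 3, a rule that flags about 5% of groups by chance. It picked out 10, of which 5 were vehicle replicate 4. Trib3 stood at 102 CPM there, against 68.9 to 71.5 CPM in the other vehicle libraries. Vehicle replicate 4 was also high for Map2k1 (131 CPM, next 102), Dusp4 (347 CPM, next 220) and Akt1 (209 CPM, next 195). It was low for Foxp1 (219 CPM, next 292).

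Among dimethyl succinate libraries, replicate 1 was high for Csk (303 CPM, next 284) and Lck (409 CPM, next 373). Replicate 2 was low for Shmt2 (338 CPM, next 361). Replicate 3 was high for Atf4 (481 CPM, next 470) and low for Myc (363 CPM, next 379).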

How the results depend on the processing

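The log2 fold changes of all 5 members kept their direction under each of 19 alternatives. With each library left out in turn they ran from -0.30 to -0.25 for Trib2, 0.43 to 0.49 for Prag1, 0.10 to 0.17 for Trib1, -0.25 to -0.042 for Trib3 and 0.084 to 0.25 for Peak1, and the values of Trib3 and Peak1 nearest 0 were those without vehicle replicate 4. Prag1, a low gene, was at 0.29 by limma-trend on log2(FPKM + 1), a scale that understates changes of low genes.

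Over all genes edgeR called 0 higher and 0 lower; with no low-count filter it called 4 higher and 2 lower. With the replicate block it called 1 higher. With libraries left out it called 0 to 18 higher and 0 to 10 lower, the highest counts without vehicle replicate 4. DESeq2 with its filter tuned at 0.1, chosen after seeing the data, called 2 higher and 2 lower. Of the members, Trib2 and Prag1 were called without vehicle replicate 4 and by that DESeq2 fit, and by no other fit. FOXO targets and ERK feedback genes had 0 to 1 called with libraries left out. The block otherwise changed no call. Same-numbered libraries correlated at -0.014 to 0.13 in their deviations and other pairs between the groups at -0.12 to 0.086, ranges that overlapped. Of 8 libraries, 3 correlated best with their own number, so the numbers are not taken as pairs.

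The medians of 3 lists changed sign. That of ERK feedback genes, -0.011, was 0.0041 by limma-voom, 0.0033 with library totals only, 0.0015 with the replicate block, and -0.033 to 0.032 with libraries left out. With libraries left out that of other pseudokinases ran from -0.0024 to 0.061, and that of FOXO targets from -0.0073 to 0.083. Of the 15 genes nearest to the members, 1 remained without vehicle replicate 4. The cause of these shifts was not tested. Depth limits Prag1 most, at 205 to 380 counts per library.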
